A study of Rattus norvegicus with 8 samples.

Results

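A group of 8 genes that mark Kupffer cells, the resident macrophages of the liver, or macrophages in general was followed in whole-liver RNA. They are Cd68, Adgre1, Clec4f, Cd163, Marco, Csf1r, Cd5l and Vsig4. A probe belonged to the group if the accession it carries maps to one of these symbols, which gave 8 of the 41012 distinct probes of the array, for 7 of the 8 genes. Cd163 had 2 probes, called the brighter and the dimmer one below, and no probe mapped to Cd5l, so that its expression is not analysed here. All 8 probes passed the filter on dim probes and were among the 26883 tested, and none was saturated on any array.

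The data are 8 dual-colour oligonucleotide arrays of liver from male Zucker diabetic fatty rats labelled as 12 weeks old, 4 arrays of obese (fa/fa) and 4 of lean (fa/+) rats. Obese rats of this strain have a defective leptin receptor, and lean rats carry 1 copy of the same allele. On every array liver RNA after treatment with TU (testosterone undecanoate, an ester that releases testosterone slowly) carried the red dye Cy5, and liver RNA after vehicle carried the green dye Cy3. TU or vehicle was given under the skin for 4 weeks, TU at 20 mg/kg, every 3 days at first and then weekly. The arrays of a genotype are labelled as 4 biological replicates, and the labels do not say if every RNA stems from a separate animal, so p-values measure the spread between these samples, which may in part be technical. Because no dyes were exchanged, a TU effect and a dye effect of a probe cannot be told apart within a genotype. A fixed dye effect cancels in the obese minus lean difference of the TU response and within either dye. All obese arrays lay on 1 slide and all lean arrays on another, so slide and genotype cannot be told apart.

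Kupffer cells line the liver sinusoids, where they take up microbes, dying red cells and modified proteins from portal blood. Their survival depends on signalling through the CSF1 receptor, and the lineage factor PU.1 drives many macrophage genes. In whole liver these genes are measured against a large background of hepatocyte RNA, and fewer macrophages and less RNA per macrophage cannot be told apart.

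The array files give no probe sequences, so the 250 bases before the annotated start are shown for the 4 members on which the results turn, from RefSeq's GRCr8 assembly, to give the regulatory context of genes that are read here together. Clec4f and Vsig4 differed between the genotypes under TU, and Cd68 and Adgre1 had TU over vehicle ratios below 0 on every array. Capitals mark GAGGAA or its reverse complement TTCCTC, the core that PU.1 binds, and AGAACA or TGTTCT, a half-site of the androgen receptor. Clec4f lies on the minus strand at chr4:117696408-117696657, Vsig4 on the minus strand at chrX:65179709-65179958, Cd68 on the minus strand at chr10:54882442-54882691 and Adgre1 on the plus strand at chr9:2329190-2329439.
Clec4f: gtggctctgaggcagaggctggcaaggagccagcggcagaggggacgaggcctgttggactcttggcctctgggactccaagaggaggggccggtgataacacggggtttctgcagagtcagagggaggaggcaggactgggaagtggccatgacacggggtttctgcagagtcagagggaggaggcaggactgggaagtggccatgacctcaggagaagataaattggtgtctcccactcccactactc
Vsig4: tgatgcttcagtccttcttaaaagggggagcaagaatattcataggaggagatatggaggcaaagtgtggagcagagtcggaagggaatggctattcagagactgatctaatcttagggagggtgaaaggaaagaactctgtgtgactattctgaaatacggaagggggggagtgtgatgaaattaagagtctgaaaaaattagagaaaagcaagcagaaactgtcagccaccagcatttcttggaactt
Cd68: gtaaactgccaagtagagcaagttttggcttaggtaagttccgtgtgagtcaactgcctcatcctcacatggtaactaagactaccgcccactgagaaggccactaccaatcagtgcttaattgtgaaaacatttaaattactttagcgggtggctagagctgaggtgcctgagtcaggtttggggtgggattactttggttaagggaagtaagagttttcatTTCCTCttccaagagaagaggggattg
Adgre1: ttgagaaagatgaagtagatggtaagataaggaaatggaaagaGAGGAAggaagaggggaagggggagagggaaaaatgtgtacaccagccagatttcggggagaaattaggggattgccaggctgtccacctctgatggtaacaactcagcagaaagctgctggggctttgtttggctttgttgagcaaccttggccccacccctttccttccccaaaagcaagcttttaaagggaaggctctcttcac
The PU.1 core stood in 5 of the 8 member promoters (those of Cd68, Adgre1, Marco, Csf1r and Cd5l) and in 23.3% of 33469 rat promoters of the same length. The androgen half-site stood in none of the 8 and in 17.5% of all. In Cd68 the core lay 22 to 27 bases before the start, in the reverse orientation, and in Adgre1 202 to 207 bases before it. The windows of Clec4f and Vsig4 held neither motif. A match describes these letters and is not a binding site, and the absence of a match says nothing about the factor.

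The TU response came first. In obese and in lean livers the lysosomal glycoprotein Cd68 and the adhesion receptor Adgre1 (F4/80) gave the largest downward ratios relative to their spread, but no member probe passed the adjusted threshold of 0.05 in either genotype. All 8 member probes had mean ratios below 0 in both genotypes, against 53.8% of all probes in obese and 56.1% in lean rats. Across the alternative settings 5 to 8 member probes were below 0 in each genotype, the stricter filter leaving 5 probes with a value, and in obese rats at least 1 of the 8 turned above 0 with the scanner software's processed signals, the series matrix, median centring, scaling or no background correction, or without obese replicate 1, 2 or 3. The members that turned were the Cd163 probes and Vsig4. Among the 7 genes, each taken by its brightest probe, the median log2 fold change was -0.24 in obese rats and -0.19 in lean rats, while over all probes it was -0.012 in obese and -0.017 in lean rats. In limma's fit 0.026% of all tested probes were called in obese and 0.986% in lean rats.

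The log2 ratio of TU over vehicle of Cd68, a protein of macrophage endosomes and lysosomes, was -0.49, -0.25, -0.79 and -0.32 on obese replicates 1 to 4, against -0.52, -0.53, -0.23 and -0.33 on lean replicates 1 to 4. The ratio was below 0 on every array and the genotypes overlapped. The mean log2 fold change was -0.46 ± 0.091 in obese rats (SE, n = 4, limma adjusted p = 0.0921) and -0.40 ± 0.091 in lean rats (SE, n = 4, limma adjusted p = 0.0763). The fit estimates 1 spread per probe from all 8 arrays, so the SE was the same although the SDs were 0.24 in obese and 0.15 in lean rats. Arrays of 1 genotype therefore also affect the p-values of the other. Adgre1 had log2 ratios of -0.11, -0.19, -0.46 and -0.21 on the obese arrays, against -0.11, -0.28, -0.40 and -0.52 on the lean arrays. These too were below 0 on all 8 arrays, and the means were -0.24 ± 0.079 in obese rats (limma adjusted p = 0.193) and -0.33 ± 0.079 in lean rats (limma adjusted p = 0.0857). Ratios below 0 on all 8 arrays were found for 2 of the 8 member probes and for 4.07% of all probes. On all 4 obese arrays the count was 2 of 8, against 12.9% of all probes, and on all 4 lean arrays 4 of 8, against 17.4%. The 4 probes below 0 on the lean arrays stood for 3 genes, since both Cd163 probes were among them. The dimmer Cd163 probe reached -0.0034 on its highest lean array. The calls of Cd68 and Adgre1 moved with the arrays in the fit: without obese replicate 2, whose log2 ratios had an SD of 0.465 against 0.149 to 0.253 on the other arrays, Cd68 (limma adjusted p = 0.0252) and Adgre1 (limma adjusted p = 0.0405) passed in lean rats.

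**Figure D1:**
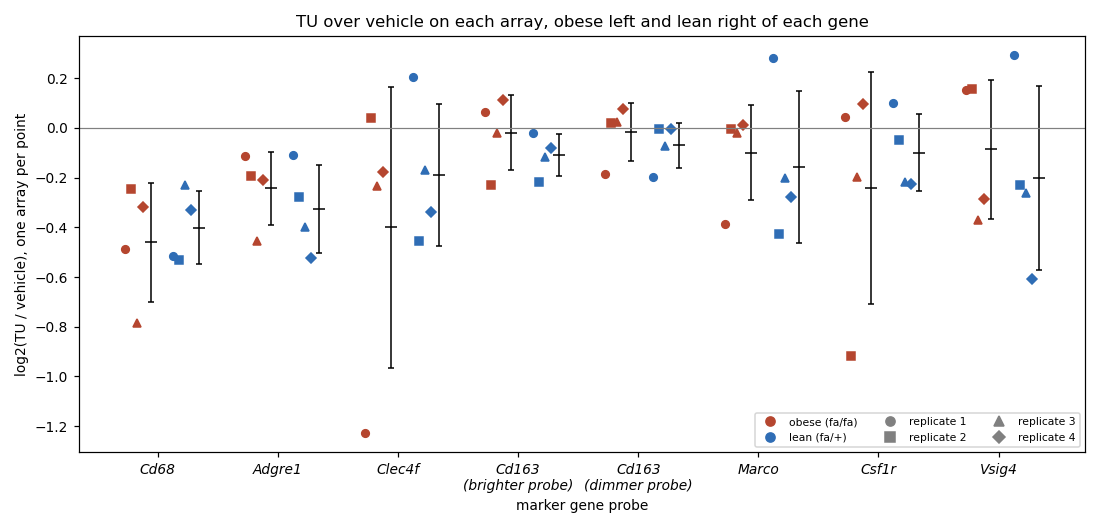
The log2 ratio of TU over vehicle (vertical axis) of each marker probe on each array, obese arrays left and lean arrays right of each name, with black bars for the mean and SD of 4 arrays. Cd68 and Adgre1 lie below 0 on all 8 arrays, and obese replicate 1 of Clec4f (-1.23) and obese replicate 2 of Csf1r (-0.92) stand apart from their groups.

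Clec4f, a C-type lectin that binds galactose-type sugars and in rodents is a marker restricted to Kupffer cells, had log2 ratios of -1.23, 0.041, -0.23 and -0.18 on obese replicates 1 to 4, against 0.20, -0.45, -0.17 and -0.34 on lean replicates 1 to 4. One array made most of its obese mean: the fold change was -0.40 ± 0.19 (limma adjusted p = 0.305) with obese replicate 1 and -0.12 without it, and -0.19 ± 0.19 in lean rats (limma adjusted p = 0.685). Csf1r, the tyrosine kinase receptor for CSF1 and IL34, was similar, with a mean of -0.24 ± 0.15 in obese rats that came to -0.019 without obese replicate 2, whose ratio was -0.92. Its lean mean was -0.099 ± 0.15. Neither gene passed in either genotype.

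The scavenger receptor Marco, which binds bacteria and particles, had a mean ratio of -0.099 ± 0.11 in obese and -0.16 ± 0.11 in lean rats. The obese mean came to -0.0043 without obese replicate 1, where Marco was not well above background in Cy5, and the lean mean to -0.066 without lean replicate 2. Vsig4, a complement receptor of the immunoglobulin family that captures C3-coated particles, averaged -0.087 ± 0.14 in obese and -0.20 ± 0.14 in lean rats. The brighter probe of Cd163, the receptor that clears haemoglobin bound to haptoglobin, averaged -0.019 ± 0.065 in obese and -0.11 ± 0.065 in lean rats, and its dimmer probe -0.017 ± 0.060 in obese and -0.069 ± 0.060 in lean rats. Adjusted p-values of these 4 probes ranged from 0.658 to 0.899 in obese rats and from 0.457 to 0.638 in lean rats (limma), and their ratios lay on both sides of 0 over the 8 arrays. The intervals of these 4 probes reached at most 0.52 log2 units below 0. Both Cd163 probes were dim, and the 50 added to each signal in the correction draws such ratios and SEs toward 0.

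The obese minus lean difference of the TU response was not called for any member probe, nor for any probe of the array (0% called by limma, with 2541 probes at an unadjusted p under 0.05, none of them a member). The difference in log2 ratio was -0.059 ± 0.13 for Cd68 (95% interval -0.35 to 0.23) and 0.084 ± 0.11 for Adgre1 (-0.17 to 0.33). It was -0.21 ± 0.26 for Clec4f (-0.80 to 0.38), -0.14 ± 0.21 for Csf1r (-0.61 to 0.32) and 0.11 ± 0.20 for Vsig4 (-0.33 to 0.56). The intervals leave room for differences of either sign in each of these genes. Marco's difference was 0.057 ± 0.16, and the brighter Cd163 probe's 0.090 ± 0.092.

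The comparison of obese with lean livers within 1 dye gave the 2 calls among the markers. Under TU, Clec4f was 1.90-fold lower and Vsig4 1.92-fold higher in obese than in lean livers. Of the 8 member probes 1 was called higher and 1 lower, where 12.6% of all tested probes were called higher and 9.23% lower, 21.8% in all. The number of member calls and their split by direction thus lay near the shares over all probes. Under vehicle the same 2 genes had the largest differences of the 8 probes in the same directions and passed unadjusted, and neither passed the adjusted threshold. The vehicle comparison called 18.3% of all probes, 10.3% higher and 8.05% lower, and 0 of the 8 member probes (2 at an unadjusted p under 0.05).

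In the TU channel Clec4f had log2 intensities of 12.68, 13.06, 13.15 and 13.03 on obese replicates 1 to 4, against 13.94, 13.94, 13.90 and 13.85 on lean replicates 1 to 4. Every obese value lay below every lean value. The log2 fold change was -0.92 ± 0.11 (SE, n = 4 each; limma adjusted p = 0.00112). In the vehicle channel the values were 13.91, 13.02, 13.39 and 13.21 on the obese arrays, against 13.74, 14.40, 14.07 and 14.18 on the lean arrays. There the groups overlapped, since obese replicate 1 lay above lean replicate 1. The difference was -0.71 ± 0.21 (limma adjusted p = 0.0533), and without obese replicate 1 it was -0.89 (limma adjusted p = 0.0108). Clec4f was called under TU in every alternative setting that gave a value.

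Vsig4 had log2 intensities of 8.78, 9.74, 9.79 and 9.36 on the obese arrays in the TU channel, against 8.45, 8.67, 8.51 and 8.29 on the lean arrays. The obese values were all above the lean ones, although obese replicate 1 exceeded the highest lean array by little. The log2 fold change was 0.94 ± 0.22 (limma adjusted p = 0.0180). The vehicle channel gave 8.63, 9.59, 10.16 and 9.65 on the obese arrays, against 8.15, 8.90, 8.77 and 8.89 on the lean arrays, and here obese replicate 1 lay within the lean range. The vehicle difference was 0.83 ± 0.32 (limma adjusted p = 0.115), and without obese replicate 1 it was 1.12 (limma adjusted p = 0.0144). Under TU the call was lost without lean replicate 1 (limma adjusted p = 0.0504) or without lean replicate 4 (limma adjusted p = 0.0555).

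**Figure D2:**
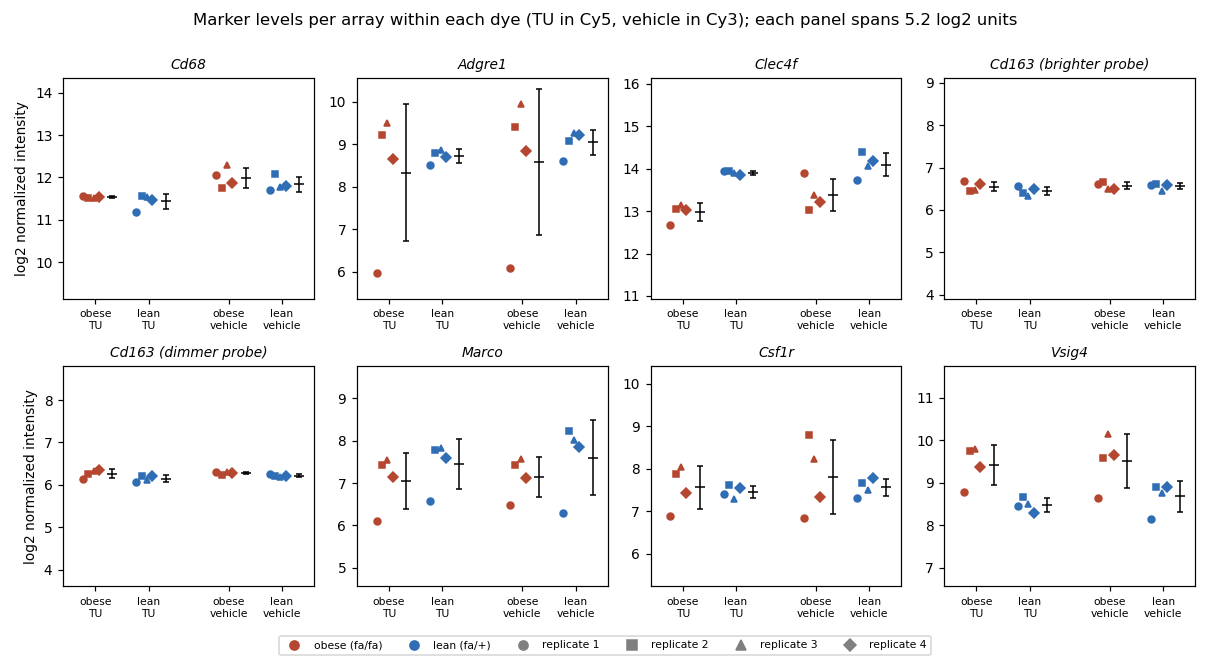
Normalized log2 intensity (vertical axis, each panel spanning the same number of log2 units) of each marker probe in obese and lean livers under TU (Cy5) and under vehicle (Cy3), 1 point per array and black bars for mean and SD of 4 arrays. Clec4f is lower and Vsig4 higher in obese livers under TU without overlap, and Adgre1 of obese replicate 1 lies at 5.97 and 6.08, far below the other arrays.

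No overlap between obese and lean arrays under TU was found for 2 of the 8 member probes, Clec4f and Vsig4, against 27.9% of all probes, and under vehicle for 0 of 8, against 28.4%. The count under TU thus lay near the share over all probes. The order of the group means was the same in both dyes for these genes: Clec4f averaged 12.98 ± 0.21 in obese and 13.91 ± 0.043 in lean livers under TU, and 13.38 ± 0.38 in obese and 14.10 ± 0.28 in lean livers under vehicle (SD, n = 4 each). Vsig4 averaged 9.42 ± 0.47 in obese and 8.48 ± 0.16 in lean livers under TU, and 9.51 ± 0.64 in obese and 8.68 ± 0.36 in lean livers under vehicle. Within a genotype, TU against vehicle passed the test for neither gene.

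Adgre1 differed most between arrays of 1 group. Its log2 intensity under TU was 5.97, 9.22, 9.50 and 8.64 on obese replicates 1 to 4, against 8.51, 8.81, 8.87 and 8.71 on lean replicates 1 to 4. Under vehicle it was 6.08, 9.41, 9.96 and 8.85 on the obese arrays, against 8.62, 9.09, 9.27 and 9.23 on the lean arrays. On obese replicate 1 the spot read 50 in Cy5, over a background of 41.5, and was not well above background, and it read 39 in Cy3, over a background of 19.5. The other obese arrays read 369 to 985 in Cy5 and 350 to 1117 in Cy3. The obese over lean difference was -0.39 ± 0.70 under TU (limma adjusted p = 0.734) and -0.47 ± 0.77 under vehicle (limma adjusted p = 0.710). Without that array it turned to 0.40 under TU and 0.36 under vehicle, again not called, so the direction of this marker rested on 1 array. With all arrays and the scanner software's processed signals the difference was -1.09 under TU and -1.05 under vehicle, not called.

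Marco was lowest on replicate 1 of both genotypes. Its log2 intensity under TU was 6.11, 7.42, 7.54 and 7.13 on the obese arrays, against 6.57, 7.79, 7.82 and 7.58 on the lean arrays. Under vehicle the values were 6.49, 7.42, 7.56 and 7.12 on the obese arrays, against 6.29, 8.22, 8.02 and 7.86 on the lean arrays. The obese array was below the lean array of the same number in 4 of 4 under TU and in 3 of 4 under vehicle. The difference was -0.39 ± 0.38 under TU (limma adjusted p = 0.514) and -0.44 ± 0.44 under vehicle (limma adjusted p = 0.523). Without obese replicate 1 it came to -0.074 under TU and -0.23 under vehicle, and without lean replicate 1 to -0.89 under vehicle. With the scanner software's processed signals it was -0.997 under TU, not called. With the replicate number as a block, Marco passed under TU (limma adjusted p = 0.0214), which made 3 member probes called. Replicate numbers are positions on the slide. The deviations of same-numbered arrays correlated with r of 0.19 to 0.62 in the TU channel and -0.035 to 0.63 in the vehicle channel. The fits as reported do not use this pairing. Without replicate 1 of both genotypes, a setting chosen after the data were seen, 3 member probes passed under vehicle (Clec4f, Marco and Vsig4) and 2 under TU (Clec4f and Vsig4).

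Csf1r had log2 intensities of 6.89, 7.89, 8.03 and 7.43 in obese livers, against 7.40, 7.61, 7.29 and 7.54 in lean livers under TU. Its obese arrays spread on both sides of the lean ones, and the difference was 0.099 ± 0.23 under TU and 0.24 ± 0.40 under vehicle. Its sign turned with 1 array left out: under TU it was -0.059 without obese replicate 3 and 0.33 without obese replicate 1, and under vehicle -0.088 without obese replicate 2 and 0.57 without obese replicate 1. Cd68 lay between 11.51 and 11.57 on the obese arrays under TU, against 11.18 to 11.56 on the lean arrays, which spread more widely. Its obese over lean difference was 0.099 ± 0.092 under TU (95% interval -0.11 to 0.31) and 0.16 ± 0.14 under vehicle (-0.16 to 0.47). The brighter Cd163 probe gave 0.099 ± 0.084 under TU and 0.0092 ± 0.067 under vehicle, and the dimmer probe 0.12 ± 0.076 under TU and 0.067 ± 0.050 under vehicle. In Cy5 the brighter probe read 66 to 86.5 over backgrounds of 39 to 46, and the dimmer 47 to 69.5 over 40 to 46.5. The correction adds 50 to every signal, which at signals this low draws fold changes and SEs toward 0. Small values of these probes therefore do not show equal levels. With the scanner software's processed signals the brighter probe gave 0.92 under TU and passed (limma adjusted p = 0.00164), and 0.56 under vehicle without passing (limma adjusted p = 0.0595). In the fit as reported none of the 4 probes of Csf1r, Cd68 and Cd163 passed, with adjusted p-values of 0.309 to 0.803 under TU and 0.394 to 0.941 under vehicle (limma).

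**Figure D3:**
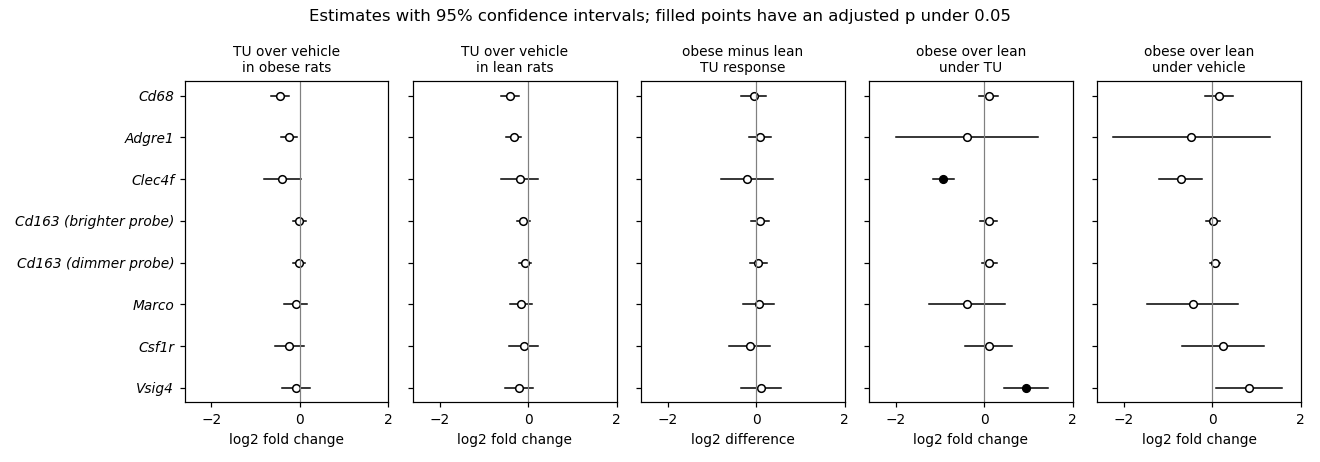
Estimates of the 5 comparisons (horizontal axis, log2) for each marker probe with 95% confidence intervals, where a filled point has an adjusted p under 0.05. Only Clec4f (-0.92) and Vsig4 (0.94), obese over lean under TU, are filled, and the intervals of Adgre1 between genotypes are the widest.

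The markers did not vary together as 1 group. Centred within each dye over the 16 channel values, Adgre1, Marco and Csf1r followed the mean of the other members with Pearson's r of 0.779, 0.737 and 0.704. Vsig4 gave 0.315, Cd68 0.114, Clec4f -0.076 and Cd163 -0.52. The value of Cd163 is that of its brighter probe, whose readings lay close to background as given above, so it says little about that gene. The mean of the 7 genes was lowest on obese replicate 1, at -0.71 in Cy5 and -0.65 in Cy3, and next lowest on lean replicate 1, at -0.15 in Cy5 and -0.40 in Cy3. Both dyes of an array share its hybridization, so these are not 16 independent values. Between the dyes, deviations from the genotype means correlated over the 8 arrays with r of 0.993 for Adgre1, 0.935 for Marco, 0.889 for Csf1r and 0.777 for Vsig4. It was 0.364 for Cd68, 0.178 for the brighter and -0.36 for the dimmer Cd163 probe, and -0.67 for Clec4f. The 5 other named genes whose values were most like the mean of the markers were Slpi (r = 0.975), Irf5 (0.974), Fbxw17 (0.967), Tyw1 (0.962) and Pam (0.961), among 9807 genes, over the same 16 channel values. Adgre1, Marco and Csf1r each had their lowest obese value on obese replicate 1 in both dyes, Adgre1 at 5.97 and 6.08. That array therefore weighs heavily in their r values. The mean was not scaled by gene, so the array also weighs on the genes most like it. No r was recomputed without it.

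Other genes of resident macrophages showed both directions too. Of 26 listed genes 23 were tested, and under TU 4 were higher and 4 lower in obese than in lean livers, while under vehicle 0 were higher and 2 lower. Counts of called genes in these and the other lists stand against 12.6% of all probes called higher and 9.23% lower under TU, and 10.3% higher and 8.05% lower under vehicle. The complement subunit C1qa and the actin-binding protein Aif1 were lower under both treatments, in log2 fold changes: C1qa had -1.22 ± 0.23 under TU (limma adjusted p = 0.00778) and -0.90 ± 0.24 under vehicle (0.0397), and Aif1 had -0.77 ± 0.15 under TU (0.00876) and -1.08 ± 0.24 under vehicle (0.0203). The other chains of the same complement component, C1qb (0.25 ± 0.13) and C1qc (-0.26 ± 0.17), did not pass under TU. The haem-degrading enzyme Hmox1 (-0.56 ± 0.079) and the lysosomal protease Ctss (-0.34 ± 0.10) were lower under TU. Under vehicle Hmox1 gave -0.12 ± 0.24 and Ctss -0.34 ± 0.18, neither called. The IgG Fc receptors Fcgr3a (0.61 ± 0.098) and Fcgr2b (0.57 ± 0.13) were higher under TU. So were the Fc receptor signalling chain Fcer1g (0.45 ± 0.074) and the pore-forming protein Mpeg1 (0.36 ± 0.087). None of these passed under vehicle, where Fcgr3a gave 0.64 ± 0.27, Fcgr2b 0.22 ± 0.21, Fcer1g 0.49 ± 0.15 and Mpeg1 0.063 ± 0.16. The IgG Fc receptor Fcgr1a gave 0.0024 ± 0.078 under TU and -0.23 ± 0.21 under vehicle, neither called. Under the alternative settings 2 to 6 were called higher and 2 to 5 lower under TU, and 0 to 2 higher and 0 to 4 lower under vehicle, where no call was left without any 1 of the lean arrays. The median over the list was 0.0024 under TU and 0.11 under vehicle, against 0.026 under TU and 0.023 under vehicle over all probes.

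Of the ligands and transcription factors of the CSF1R axis, 12 of 15 were tested, with 1 higher and 2 lower under TU and 0 higher and 1 lower under vehicle. Csf1, the ligand, gave 0.24 ± 0.17 under TU and -0.035 ± 0.20 under vehicle, neither called, and Spi1, which encodes PU.1, gave -0.38 ± 0.16 under TU and 0.14 ± 0.29 under vehicle, neither called. Zeb2, a factor needed for Kupffer cell identity in mice, was lower, with log2 fold changes of -0.61 ± 0.067 under TU (limma adjusted p = 0.000957) and -0.71 ± 0.13 under vehicle (0.0113). The transcription factor Maf was lower under TU (-1.10 ± 0.20) and gave -0.77 ± 0.29 under vehicle, not called. Cebpa, which hepatocytes also express, was higher under TU (0.68 ± 0.11) and gave 0.79 ± 0.26 under vehicle, not called. Of 14 genes of recruited and lipid-associated macrophages 10 were tested. The fatty acid binding protein Fabp5 was higher under vehicle (1.37 ± 0.26) and Plac8 under TU (0.52 ± 0.14). Fabp5 gave 1.01 ± 0.42 under TU and Plac8 0.33 ± 0.26 under vehicle, neither called. All 10 had a log2 fold change above 0 under TU, where 46.2% of all probes were below 0, with a median of 0.22, and 1 passed, while Trem2 gave 0.73 ± 0.56. Under vehicle 1 of the 10 was below 0, against 46.2% of all probes, the median was 0.17 and 1 passed. Of 14 cytokines and effectors 11 were tested. The interleukin 1 antagonist Il1rn (0.57 ± 0.13) and the chemokine Ccl3 (0.58 ± 0.12) were higher under TU. They gave 0.27 ± 0.19 and 0.31 ± 0.24 under vehicle. None of the 11 was called under vehicle, where Il1b (-0.82 ± 0.29), Cxcl1 (-0.78 ± 0.28) and Ccl2 (0.54 ± 0.21) had the smallest p-values. Over the alternative settings the recruited list had 0 to 4 genes called higher under TU and the cytokine list 1 to 3, and the CSF1R axis list 1 to 2 higher and 2 to 4 lower. Under vehicle the CSF1R axis list had 0 to 2 higher and 0 to 2 lower, and with the scanner software's processed signals none was lower, so that the vehicle call of Zeb2 was lost there.

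**Figure D4:**
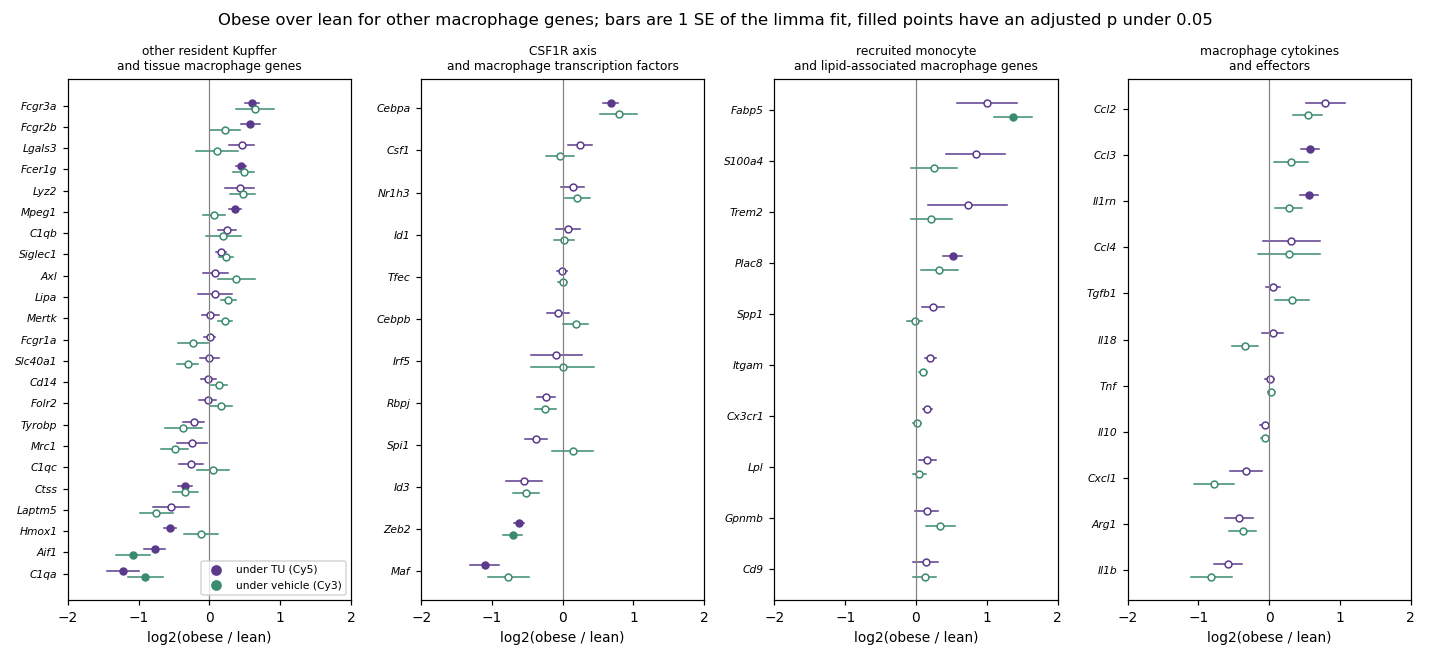
The log2 fold change of obese over lean (horizontal axis) for the tested genes of the 4 macrophage lists under TU and under vehicle, with bars of 1 SE, where a filled point has an adjusted p under 0.05. Resident macrophage genes spread from C1qa (-1.22) to Fcgr3a (0.61) under TU, on both sides of 0.

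None of the 56 tested genes of these 4 lists passed in the TU over vehicle comparison of either genotype or in its difference between genotypes. At an unadjusted p under 0.05 the resident macrophage list had 9 of 23 genes in obese and 1 in lean rats, the CSF1R axis list 2 of 12 and 1, the recruited list 1 of 10 and 2, and the cytokine list 2 of 11 and 1, where all probes had 17.5% in obese and 16.4% in lean rats. The smallest p-values in obese rats were those of Mrc1 (0.32 ± 0.078), C1qa (-0.41 ± 0.12) and Axl (-0.35 ± 0.11), then Zeb2 (-0.28 ± 0.10), Maf (-0.36 ± 0.16) and Irf5 (-0.19 ± 0.098), Fabp5 (-1.19 ± 0.37), Lpl (0.21 ± 0.095) and S100a4 (0.46 ± 0.22), and Il1rn (0.34 ± 0.13), Cxcl1 (0.60 ± 0.24) and Tgfb1 (-0.39 ± 0.18). In lean rats they were those of Aif1 (-0.47 ± 0.11), Fcer1g (-0.23 ± 0.11) and Cd14 (0.13 ± 0.061), then Zeb2 (-0.37 ± 0.10), Csf1 (-0.18 ± 0.090) and Id3 (-0.13 ± 0.099), Plac8 (-0.35 ± 0.14), Fabp5 (-0.83 ± 0.37) and Itgam (-0.14 ± 0.066), and Il18 (-0.27 ± 0.12), Arg1 (0.36 ± 0.21) and Ccl4 (-0.11 ± 0.080). For the difference between genotypes they were those of Slc40a1 (0.30 ± 0.12), Mrc1 (0.24 ± 0.11) and Mpeg1 (0.30 ± 0.14), then Csf1 (0.28 ± 0.13), Spi1 (-0.52 ± 0.34) and Maf (-0.33 ± 0.22), Cx3cr1 (0.14 ± 0.072), S100a4 (0.60 ± 0.31) and Gpnmb (-0.19 ± 0.13), and Il18 (0.39 ± 0.17), Il1rn (0.29 ± 0.18) and Ccl3 (0.26 ± 0.19).

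Markers of other liver cells differed between the genotypes beside Clec4f and Vsig4, and their part in those differences was not tested. The hepatocyte markers were well above background on every array, and 2 of 8 tested were higher in obese livers under TU (Apoa1 and Cps1) and 2 under vehicle (Alb and Cps1). Their summed log2 level was 19.43 to 20.07 on obese arrays against 19.86 to 19.99 on lean arrays under TU. Of 9 stellate cell and fibroblast markers 4 were higher under TU (Col1a1, Col3a1, Pdgfrb and Rgs5) and 1 lower (Lrat), with summed levels of 13.07 to 14.05 on obese arrays against 12.66 to 12.83 on lean arrays. Under vehicle 2 were higher (Col3a1 and Pdgfrb) and 1 lower (Lrat), with 12.92 to 13.54 on obese against 12.89 to 13.12 on lean arrays. Of 6 tested lymphocyte markers, Cd3d and Cd3g were lower under both treatments. The summed lymphocyte level was 9.49 to 9.79 on obese arrays against 9.95 to 10.13 on lean arrays under TU, and 9.39 to 9.75 on obese against 9.90 to 10.06 on lean arrays under vehicle, while Cd3e and Cd2 were not well above background on any array. Of 6 sinusoidal endothelial markers 1 was higher (Fcgr2b, which is also on the resident macrophage list) and 2 lower (Lyve1 and Pecam1) under TU, and none was called under vehicle. The erythroid marker Hbb-b1 was higher in obese livers under vehicle and, by 1.34 ± 0.19, higher under TU than under vehicle in lean rats, where the hepatocyte marker Ambp was also higher (0.66 ± 0.074). Ambp was higher in obese rats as well (0.67 ± 0.074). The summed erythroid level under vehicle was 15.67 to 16.63 on obese arrays against 14.59 to 15.43 on lean arrays, without overlap. Under TU the erythroid level was 16.23 to 16.80 on obese against 16.13 to 16.66 on lean arrays. Only 2 of 8 listed neutrophil, 2 of 6 dendritic cell and 3 of 6 cholangiocyte markers were tested. None of them was called in any of the 5 comparisons, which says little about these cells. The summed level of the 7 macrophage genes, in which Clec4f has the largest signal, was 13.34 to 13.79 on obese arrays against 14.20 to 14.29 on lean arrays under TU, and 13.77 to 14.32 on obese against 14.13 to 14.75 on lean arrays under vehicle. In lean livers under TU Clec4f averaged 13.91 and Cd68, the next brightest, 11.44. The sum thus mainly repeats Clec4f and is not a separate measure of the macrophage genes.

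**Figure D5:**
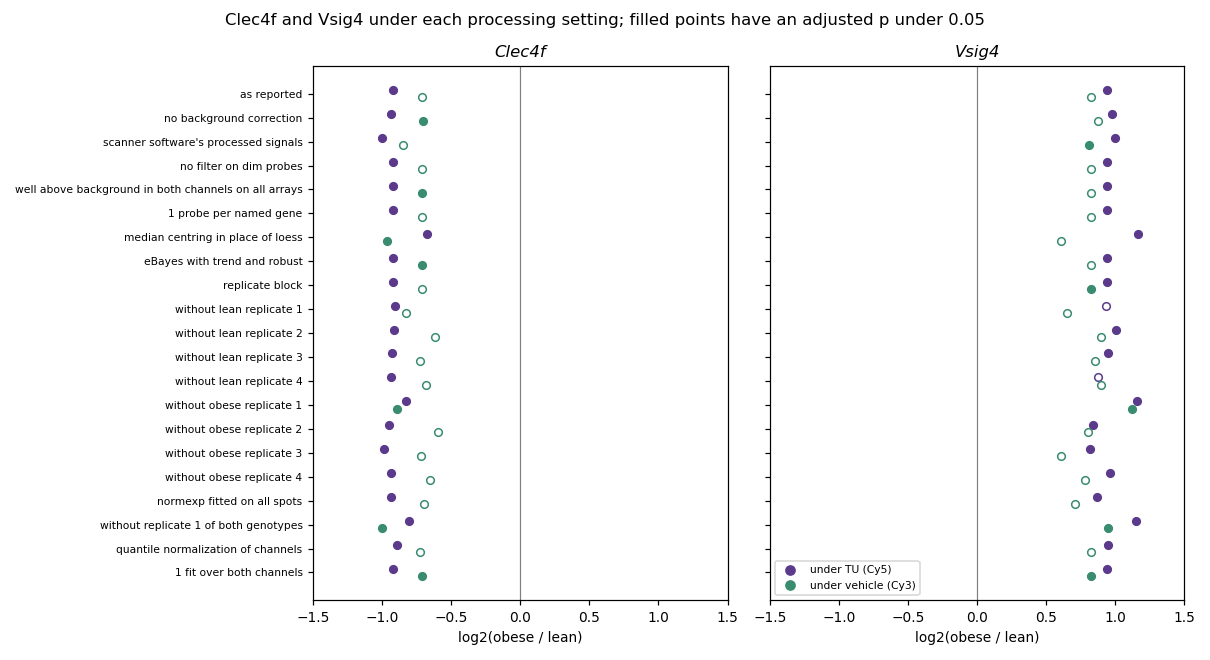
The log2 fold change of obese over lean (horizontal axis) of Clec4f and Vsig4 under each processing setting (rows), under TU and under vehicle, where a filled point has an adjusted p under 0.05. Clec4f stays at or below -0.67 under TU and is filled throughout, and Vsig4 under TU is open only without lean replicate 1 and without lean replicate 4.

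The arrays were of similar brightness, with median raw intensities of 55 to 66 in Cy5 and 38.5 to 54 in Cy3, and between 50.5% and 60.6% of probes well above background in Cy5 and 58.5% to 69.1% in Cy3. The number of arrays limits the precision. Adgre1 and Marco lay below that mark in Cy5 on obese replicate 1 and the dimmer Cd163 probe on lean replicate 1, and every other member value was well above background. The Cd163 probes passed that mark at the low readings given above. When arrays were only centred on their median, without loess, the lean TU response had 172 probes higher and 2949 lower, against 166 higher and 99 lower as reported, and the median of all probes moved to -0.11. In that setting Cd68 and Adgre1 passed in lean rats (limma adjusted p = 0.0364 and 0.0143), and the obese minus lean difference over all probes moved to a median of 0.15.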

How the data were processed

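Per the file headers, Agilent Feature Extraction 10.7.3.1 gave each spot's intensity and its local background as medians over pixels, in each dye. It also gave processed intensities, already background-subtracted and dye-normalized, and the deposited log10 ratio of red over green. The values in the authors' series matrix behave as log2 ratios of TU over vehicle, with a slope of 3.33 to 3.37 on the scanner's log10 ratio and column medians of 0.046 to 0.14. How they were normalized is not stated in what was used here. Every one of their columns was mapped to a sample.

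Median signals were corrected with normexp (offset 50), normalized by loess within arrays and, for single channels, by Aquantile between them, and tested with limma 3.58.1 in R 4.3.3 (package data.table, version 1.17.8) at a Benjamini-Hochberg threshold of 0.05 over all tested probes. The normexp parameters were fitted on spots without a background outlier flag. Fitted on all spots they failed on some arrays, where a few flooded spots lay far below their background. This choice was made after values with the other fit were seen. Controls and non-uniform spots were not used. Probes had to lie well above background in either dye on at least 4 of 8 arrays and to have values on 2 arrays per genotype. The array annotation named 17010 probes, for 13458 genes. Lists use a gene's brightest passing probe. Named genes are all members, every list gene called, the 3 smallest p-values of a list and comparison otherwise, and the 5 genes most like the members. Of the marker lists of other cells only called genes and genes below background are named, fewer than that rule gives. Some list genes are not reported here and were left out of the lists' counts and sums. The members and lists were chosen with earlier results of these data known. Replicate numbers are slide positions per the file headers. Deviations of same-numbered obese and lean arrays correlated with r of 0.19 to 0.62 in Cy5, -0.035 to 0.63 in Cy3 and -0.12 to 0.083 for the ratios. The reported fits paired no arrays in either dye, and the replicate block was run as an alternative only. The fits were tested on simulated data. Alternatives covered background, filter, normalization, variance model, block, channel model and each array left out. RefSeq gave the promoters.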

Additional observations from a re-analysis of the deposited data

Results flagged for a closer look

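Among 48 sets of 4 values (each member probe, genotype and quantity), 1 held a value far from the others by Dixon's test at the 95% level, which flags about 1 set in 20 by chance. Marco's log2 ratio of TU over vehicle was -0.38 on obese replicate 1, against -0.022 to 0.012 on the other obese arrays, a gap of 0.915 of the range. On that array Marco was not well above background in Cy5. The cause was not tested.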

How the results depend on the processing

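Of the member probes' fold changes under the alternative settings, none that was called turned its direction. Under TU, Clec4f kept its call in all 20 settings (-0.67 at its smallest) and Vsig4 in 18 (0.82 to 1.16). The count of 2 member probes in obese over lean under TU ranged from 1 to 2 with 1 array left out, and was 3 with the replicate block and 3 with the scanner software's processed signals, where the brighter Cd163 probe was called (0.92, limma adjusted p = 0.00164). Of the 0 member probes reported under vehicle, 1 was called with no background correction, with the scanner software's processed signals, with the stricter filter, with median centring, with trended robust moderation and with the replicate block, 2 in 1 fit over both channels, 0 to 2 with 1 array left out and 3 without replicate 1 of both genotypes. Of the 0 reported for TU over vehicle in lean rats, 2 were called with median centring, 1 with arrays of that genotype alone and 0 to 2 with 1 array left out, and of the 0 in obese rats, 1 (Cd68) with ratios scaled between arrays. With normexp fitted on all spots, a setting chosen after seeing the data, the 5 member counts did not change. The causes of these changes were not tested.

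With the replicate block, Vsig4 passed under vehicle (limma adjusted p = 0.0455) and Clec4f did not (0.144), and Marco passed under TU (0.0214). It changed no other call among the members. Same-numbered arrays correlated with r of 0.62, 0.19, 0.44 and 0.24 in Cy5 on replicates 1 to 4. In Cy3 r was 0.63, 0.091, 0.43 and -0.035, and for the ratios it was -0.12 to 0.083. The results as reported use no pairing in either dye.

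Counts over all probes moved most in these settings. In lean rats the 265 calls became 0 with trended robust moderation or without replicate 1 of both genotypes, 27 with the block, 45 with normexp fitted on all spots, 154 with the stricter filter, 777 with scaled ratios, 1121 with lean arrays alone and 3121 with median centring, and 3 to 1708 with 1 array left out. In obese rats the 7 calls became 0 with moderation, block, obese arrays alone or without replicate 1 of both genotypes, 3 with normexp fitted on all spots, 11 with 1 probe per gene, 23 with no background correction, 203 with the series matrix, 209 with processed signals, 238 with median centring and 491 with scaled ratios, and 0 to 22 with 1 array left out. The difference of responses had 1 call with normexp fitted on all spots, 2 with processed signals or the matrix and 516 with median centring, and 0 to 2 with 1 array left out, against 0 as reported. Under vehicle the 4921 calls became 2804 with the block and 2305 to 7129 with 1 array left out, and under TU the 5867 calls became 3773 to 9024 with 1 array left out. The fit over both channels used an intraspot correlation of 0.525 from probes complete on all arrays.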
